A study of Mus musculus with 16 samples.

Results

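The ligands through which dendritic cells co-stimulate T cells were followed in CD11b+ dendritic cells from mouse lungs that carried tumours. The 8 genes were Cd80, Cd86, Icosl, Tnfsf4, Tnfsf9, Cd70, Cd40 and Cd83, chosen by name, and all 8 were found among the 19938 genes that had a probe set annotated with a single symbol. Cd80 had more than 1 such probe set, and the brighter one on average over the 16 arrays was used. Cells carrying CD11c, CD11b and MHC class II had been sorted from tumours (8 arrays titled tumoral) or from the lung around them (8 arrays titled peritumoral). Every host was an immunocompetent C57BL/6 mouse that had received Lewis lung carcinoma cells, a syngeneic lung tumour line, through the airways, so both groups came from tumour-bearing lungs and no tumour-free lung is part of the comparison. The labels give no age, and they do not say which animals, or how many, stand behind an array. The p-values therefore rest on the spread from array to array, part of which may be technical.

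A T cell that meets its antigen on a dendritic cell needs additional signals from ligands on the same cell. CD80 and CD86 bind CD28, which promotes activation, and CTLA-4, which restrains it, and ICOS ligand engages ICOS on T cells that are already activated. The TNF family ligands OX40 ligand (Tnfsf4), 4-1BB ligand (Tnfsf9) and CD70 act on OX40, 4-1BB and CD27 and prolong the T cell response. CD40 works in the opposite direction, as the receptor by which the dendritic cell receives CD40 ligand from the T cell, and CD83 is a surface marker of mature dendritic cells that holds MHC class II and CD86 at the surface. Many of these genes are known targets of the NF-kappaB transcription factors.

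No co-stimulatory gene differed between the labels at the threshold used, an adjusted p of 0.05 from limma over all genes. Cd80, Cd86, Cd40, Cd83, Tnfsf4, Tnfsf9 and Cd70 had higher means in tumoral arrays and Icosl a lower one, with differences between -0.03 and 0.34 on the log2 scale. The range of each gene over the 16 arrays was far wider, from 0.90 for Cd86 to 1.40 for Cd83, and the 8 genes were high and low in largely the same arrays. All values below are log2 probe-set values, differences are tumoral minus peritumoral, and groups are given as mean ± SD with n = 8.

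The array medians lay between 6.75 and 6.95. The sorting markers were bright under both labels, with Itgax, the gene of CD11c, at 11.47 ± 0.24 in peritumoral and 11.62 ± 0.08 in tumoral arrays, Itgam, the gene of CD11b, at 11.22 ± 0.50 and 11.31 ± 0.25, and the class II gene H2-Ab1 at 13.21 ± 0.13 and 13.25 ± 0.08. Peritumoral 4 and 7 stood apart. The endothelial cadherin gene Cdh5 read 12.09 and 10.29 there and no more than 8.56 in any other array, and Cd79a of the B cell receptor read 9.19 in peritumoral 4 and no more than 6.79 elsewhere. In sorted populations of this kind, fewer cells of a type and less RNA per cell cannot be told apart.

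Cd80 and Cd86, the B7 ligands of CD28, varied mostly within the labels. In the deposited order, peritumoral 1 to 8 and then tumoral 1 to 8, Cd86 read 11.48, 11.46, 10.80, 10.78, 11.38, 10.72, 11.53 and 11.44, and then 11.05, 11.44, 11.35, 11.23, 11.59, 11.62, 11.37 and 11.53. Peritumoral 3, 4 and 6 were low and the remaining peritumoral values lay among the tumoral ones, so the groups overlapped. The means were 11.20 ± 0.36 and 11.40 ± 0.19, a difference of 0.20 with a 95% interval of -0.09 to 0.48 (adjusted p = 0.589, limma). Cd80 read 11.87, 11.88, 11.38, 11.43, 11.78, 11.13, 12.07 and 11.67 in peritumoral and 11.44, 11.95, 11.67, 11.48, 11.93, 11.91, 11.80 and 12.03 in tumoral arrays. Both its highest and its lowest value were peritumoral. Its difference was 0.12, with an interval of -0.15 to 0.39 (adjusted p = 0.732, limma), and the second Cd80 probe set followed it closely (r = 0.97 over the 16 arrays) with a difference of 0.27 (two-sided exact permutation p = 0.293).

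Icosl, the ligand of ICOS, was the member with a lower mean in tumoral arrays, by a small margin. It read 10.72, 10.46, 9.62, 9.79, 10.09, 9.55, 10.64 and 10.23 in peritumoral arrays and 9.39, 10.43, 10.21, 9.44, 10.69, 10.57, 9.49 and 10.64 in tumoral arrays. The tumoral values fell into a low set, tumoral 1, 4 and 7, and a high set made of the other 5, while peritumoral values filled much of the gap between. The means were 10.14 ± 0.45 and 10.11 ± 0.57, with a difference of -0.03 and an interval of -0.52 to 0.46 (adjusted p = 0.978, limma).

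The RefSeq promoter table of the GRCm38.p6 assembly held entries for 2 of the 8 genes, Cd80 and Icosl. Whether promoter sequence bears on the shared variation of the 8 genes was not tested. The 250 bases before the start are printed 5′ to 3′, for Cd80 at chr16:38458683-38458932 and for Icosl at chr10:78069118-78069367, both on the + strand. Capitals mark matches to GGGNNNNNCC or its reverse complement GGNNNNNCCC, a loose form of the kappaB element bound by NF-kappaB.
Cd80: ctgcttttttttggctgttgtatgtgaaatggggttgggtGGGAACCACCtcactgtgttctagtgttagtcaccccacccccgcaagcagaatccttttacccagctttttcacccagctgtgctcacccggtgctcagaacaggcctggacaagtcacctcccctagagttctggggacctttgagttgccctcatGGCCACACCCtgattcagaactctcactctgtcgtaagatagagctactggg
Icosl: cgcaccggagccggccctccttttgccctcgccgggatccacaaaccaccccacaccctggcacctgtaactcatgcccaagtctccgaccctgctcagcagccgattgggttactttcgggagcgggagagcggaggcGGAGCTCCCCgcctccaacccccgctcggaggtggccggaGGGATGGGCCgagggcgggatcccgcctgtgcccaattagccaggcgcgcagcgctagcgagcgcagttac
The Cd80 window held 2 matches, beginning 210 and 52 bases before the start, and the Icosl window held 2, beginning 111 and 71 bases before it. Such a match was common, being present in 45.8% of the 32851 promoter windows of the same length. The Icosl window was richer in G and C (68.8%) than that of Cd80 (52.8%). The letters GAAANNGAAA of an interferon-stimulated element, searched on both strands, were in neither window and in 2.98% of all windows.

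Among the TNF family ligands, Tnfsf4 had the widest separation of means and Cd70 nearly none. Tnfsf4, which encodes OX40 ligand, read 6.35, 6.71, 5.78, 5.75, 6.52, 5.89, 6.95 and 6.68 in peritumoral arrays and 6.13, 6.78, 6.64, 6.33, 6.84, 7.09, 6.65 and 6.93 in tumoral arrays. Its lowest 3 values were peritumoral 3, 4 and 6 and its highest was tumoral 6, but peritumoral 7 exceeded 7 of the 8 tumoral arrays. The means were 6.33 ± 0.47 and 6.67 ± 0.32, a difference of 0.34 with an interval of -0.04 to 0.73 (adjusted p = 0.487, limma, and two-sided exact permutation p = 0.106).

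Tnfsf9, the 4-1BB ligand gene, read 11.43, 11.18, 10.62, 10.43, 11.19, 10.31, 11.62 and 11.19 in peritumoral and 10.65, 11.44, 11.18, 10.63, 11.64, 11.40, 10.50 and 11.64 in tumoral arrays. Both labels spanned nearly the same range. The means were 11.00 ± 0.48 and 11.14 ± 0.47, with a difference of 0.14 and an interval of -0.32 to 0.60 (adjusted p = 0.842, limma). Cd70, the ligand of CD27, read 6.83, 6.66, 6.20, 6.53, 6.56, 6.20, 7.28 and 6.64 in peritumoral and 6.14, 6.76, 6.45, 6.16, 6.68, 7.24, 6.27 and 7.27 in tumoral arrays. Peritumoral 7 and tumoral 6 and 8 stood above the rest. The means were 6.61 ± 0.35 and 6.62 ± 0.45, which differed by 0.01 with an interval of -0.38 to 0.40 (adjusted p = 0.991, limma).

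Tnfsf4 and Cd70 had dim probe sets. Of 1027 odorant receptor genes, which lung myeloid cells are not known to use and which serve here to show what a dim probe set reads, 95.4% had a lower mean than Tnfsf4 and 96.6% a lower mean than Cd70. All of them lay below each of the other 6 co-stimulatory genes. For dim probe sets a log2 difference can understate a change in the transcript, and no detection calls were used here.

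Cd40, the receptor for CD40 ligand, read 10.47, 10.50, 9.69, 10.11, 10.52, 9.67, 10.95 and 10.71 in peritumoral arrays and 10.19, 10.83, 10.40, 10.15, 11.00, 11.05, 10.40 and 11.02 in tumoral arrays. Tumoral 5, 6 and 8 were the 3 highest and peritumoral 3 and 6 the lowest, with the other arrays mixed. The means were 10.33 ± 0.47 and 10.63 ± 0.39, a difference of 0.30 with an interval of -0.11 to 0.71 (adjusted p = 0.56, limma). Cd83, the maturation marker, read 13.03, 12.78, 11.73, 12.56, 12.56, 11.69, 13.07 and 12.78 in peritumoral and 12.18, 13.09, 12.74, 12.22, 13.06, 12.99, 12.41 and 13.07 in tumoral arrays. Peritumoral 3 and 6 lay lowest, and the labels reached nearly the same top value. Its means were 12.53 ± 0.54 and 12.72 ± 0.39, with a difference of 0.20 and an interval of -0.25 to 0.65 (adjusted p = 0.751, limma).

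**Figure D1:**
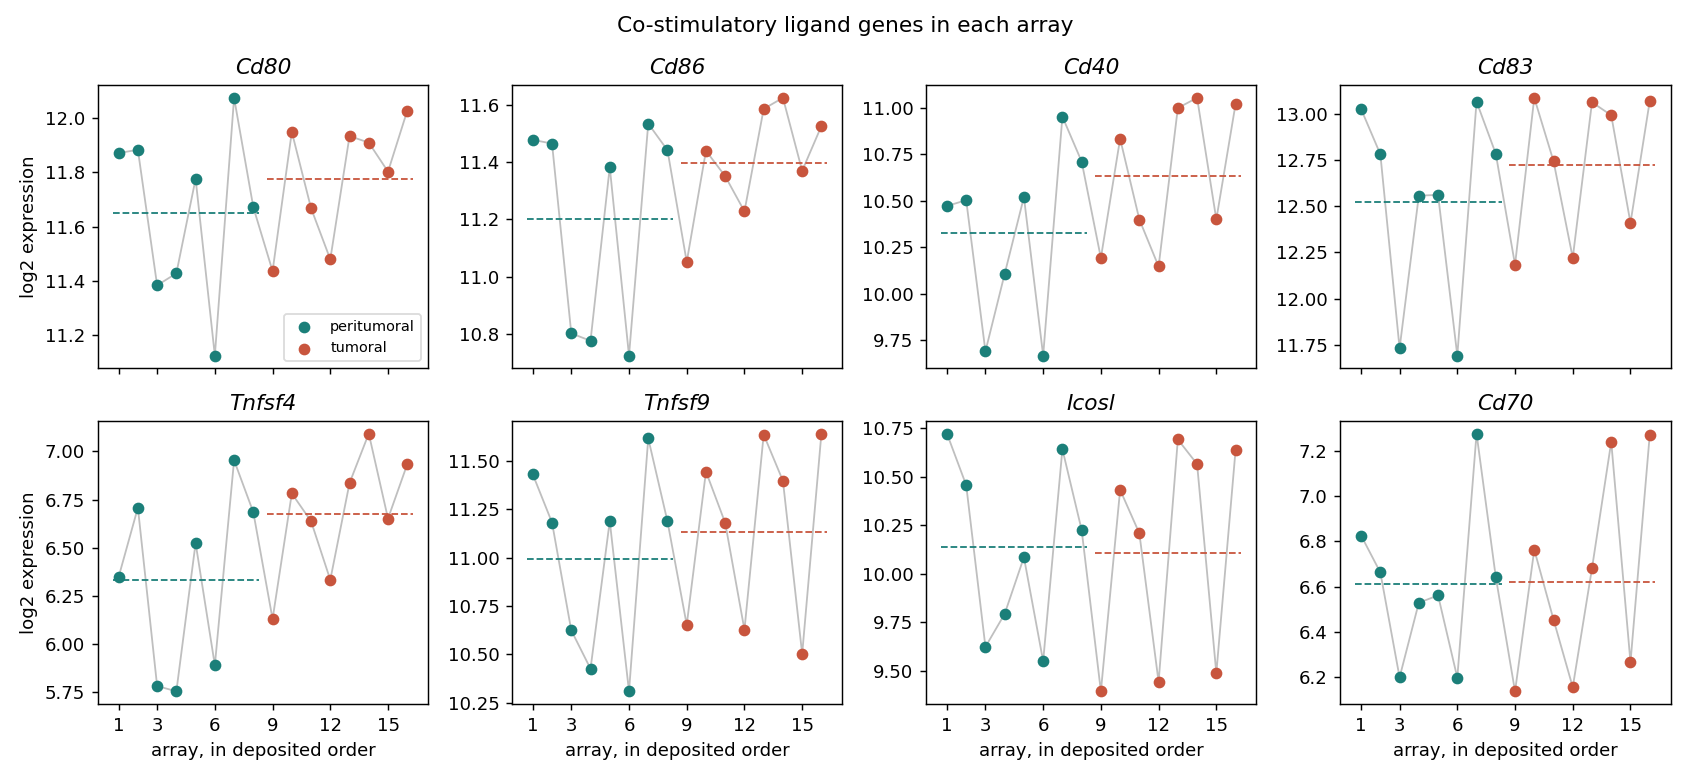
Log2 value of each co-stimulatory gene (vertical axis) in the 16 arrays in deposited order (horizontal axis, peritumoral 1 to 8 and then tumoral 1 to 8), with dashed lines at the group means. Positions 3, 6 and 12 were among the 5 lowest arrays in all 8 panels, position 9 in 7, position 4 in 5 and position 15 in 4. The group means lie close together.

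Seen as a set, 0 of 8 co-stimulatory genes passed the adjusted threshold, as did 0 of all genes (0%), and the smallest adjusted p of any gene was 0.232 (limma). At an unadjusted limma p under 0.05 the count was again 0 of 8, where 11.5% of all genes, 2292, passed. By the rank-sum test 2283 genes had an unadjusted p under 0.05, none of them co-stimulatory, and 0 genes passed after adjustment. In 7 of 8 co-stimulatory genes the difference was above 0, against 41.7% of all genes, and the median difference was 0.17, against -0.02 over all genes. That median was 0.06 without peritumoral 6 and 0.09 without peritumoral 3. These genes varied together, so their shared direction does not amount to 8 separate observations. Groups that did not overlap were found for 0.0853% of genes and for 0 of the 8. Intervals for Tnfsf4, Cd40 and Cd83 included differences above 0.60, so changes of that size were not excluded at this number of arrays.

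**Figure D2:**
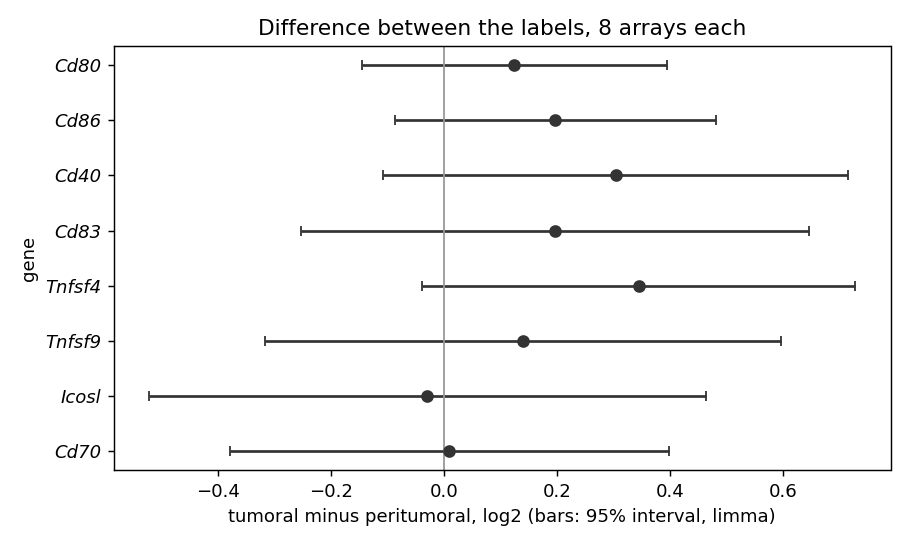
Difference of each co-stimulatory gene, tumoral minus peritumoral on the log2 scale (horizontal axis), with bars for the 95% limma interval. Every interval includes 0, and the point estimates run from -0.03 for Icosl to 0.34 for Tnfsf4.

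The variation over the 16 arrays, the difference between labels included, was large for these genes. Icosl had a larger SD over the 16 arrays than 95.6% of all genes, and Cd80, the least variable by this measure, a larger one than 80.2%. The reference was all genes, bright and dim, and was not matched for level. The median gene mean was 7.02, against 10.12 for Icosl and 11.71 for Cd80. The label accounted for 17.6% of the sum of squares of Tnfsf4, 12.5% of that of Cd40, 11.7% of that of Cd86 and 0.0951% of that of Icosl.

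The low arrays had a regular place in the deposited order. Positions 3, 6, 9, 12 and 15, which are peritumoral 3 and 6 and tumoral 1, 4 and 7, held the 5 lowest values of Cd83, Icosl and Cd70 and 4 of the 5 lowest of Cd80, Cd86, Cd40, Tnfsf4 and Tnfsf9. Averaged over the 8 genes, the deviation from each gene's mean was -0.57 and -0.66 in peritumoral 3 and 6 and -0.41, -0.35 and -0.19 in tumoral 1, 4 and 7. Peritumoral 4 was low as well, at -0.38, and was among the 5 lowest arrays of the 5 genes just named. Tumoral 7 was among the 5 lowest arrays of 4 genes and lay above the gene's own mean for 3. At the other end, peritumoral 7 and tumoral 8 were among the 5 highest arrays of all 8 genes, each with a mean deviation of 0.46. No label gives the order a meaning, the positions were not used to form groups, and what lies behind them was not tested.

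Every pair of co-stimulatory genes correlated across the 16 arrays. Over 28 pairs Pearson's r ran from 0.692 for Cd86 with Cd70 to 0.947 for Cd86 with Tnfsf4, with a median of 0.864, and Spearman's rho from 0.682 to 0.938. The largest permutation p after Benjamini-Hochberg adjustment over the 28 pairs was 0.00319 for r and 0.00425 for rho, and 10 pairs reached 1e-05 unadjusted, the smallest value that 100000 resamples can give. These tests take the arrays as independent, which no label states. Without the 2 arrays farthest from the median of the first gene, r was 0.654 to 0.964. Within peritumoral arrays r was 0.759 to 0.966 and within tumoral arrays 0.771 to 0.984, so the relation was present under both labels.

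Some partners were closer than others. Tnfsf9 and Icosl had r = 0.938, Cd40 and Tnfsf4 0.924, and the B7 pair Cd80 and Cd86 0.917, whereas Tnfsf4 and Icosl had 0.711. In 24 of the 28 pairs r was above 0.8, while 2.49% of the pairs of a co-stimulatory gene with any other gene were. For single genes that share was lowest for Tnfsf4 (1.60%) and highest for Icosl (3.36%), and 3.39% of other genes had an r above 0.8 with the mean deviation of the 8.

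**Figure D3:**
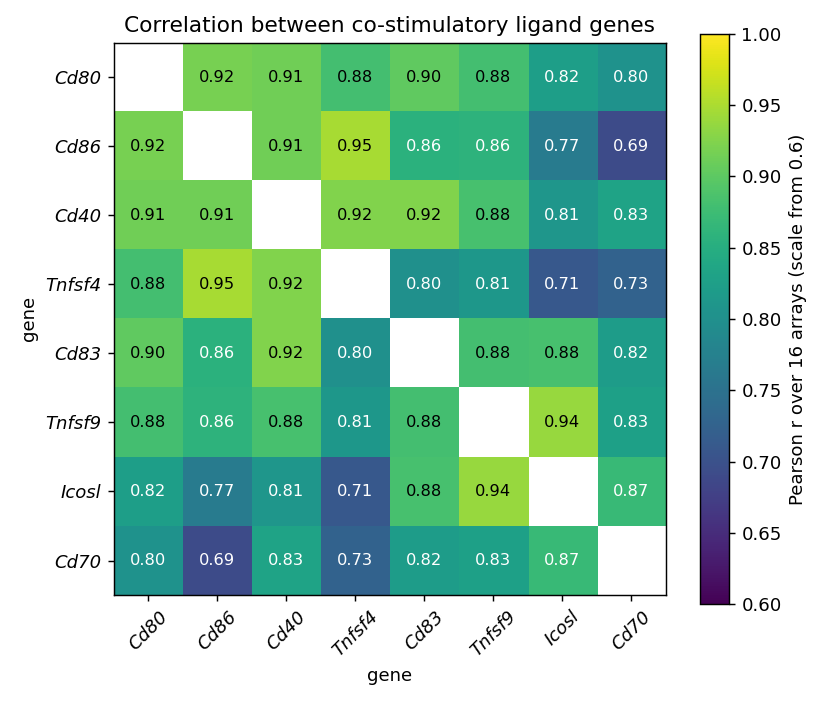
Pearson correlation of each pair of co-stimulatory genes over the 16 arrays, printed in the cells and shaded on a scale that starts at 0.6. All 28 pairs lie between 0.692 and 0.947.

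The genes most like each member were sought by Pearson's r over the 16 arrays among genes with a mean above the median gene. For Cd83 they were the histone demethylase gene Kdm6b (r = 0.990), the nuclear receptor gene Nr4a3 (0.988) and Tnfaip3, an inhibitor of NF-kappaB signalling (0.987). Cd80 was most like the NF-kappaB subunit gene Relb (0.955), Mir155 (0.948) and Lrrfip1 (0.947), and Cd86 like Rab8b (0.957), Mllt6 (0.955) and Malt1 (0.953), a signalling protease. Cd40 was nearest to Fbxo11 (0.974), Fam117b and Spag9, and Tnfsf9 to Rassf4 (0.968), Hivep2 and Sbno2. Icosl was nearest to Adam23 (0.987), Pip4k2a and L1cam, Tnfsf4 to the nuclear receptor gene Nr4a2 (0.971), Mmp25 and Rab8b, and Cd70 to Rarb (0.906), Sema4c and Ehf. Genes that lead such a ranking were picked for their r, and the values describe these arrays.

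Genes around the co-stimulatory ligands were read from 7 lists chosen by function, none of which had a gene past the adjusted threshold in limma. An unadjusted limma p under 0.05 was reached by 11.5% of all genes. It was found for 2 of 16 genes of CD40 and NF-kappaB signalling, 3 of 16 of maturation, 5 of 15 immediate-early and 4 of 13 interferon-response genes. The other lists had 1 of 16 other co-signalling ligands, 1 of 7 co-stimulatory receptors of T cells and 1 of 6 surface control genes. For each list, the deviations of its genes from their own means were averaged per array and set beside the mean deviation of the 8 ligands. All of these correlations share arrays and RNA and are descriptions.

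CD40 and NF-kappaB signalling followed the ligands most closely. Of its 16 measured genes 15 had a higher mean in tumoral arrays and 1 a lower one, and the median difference was 0.07. The list's mean had r = 0.99 with that of the ligands, and 13 of the 16 genes had r above 0.8. Relb, which works with the kinase product of Map3k14 in the non-canonical branch, had r = 0.98, Map3k14 itself 0.97, Traf1, an adaptor of TNF family receptors, 0.98, and the inhibitor gene Nfkbia 0.97; apart from Relb these were named after their values were seen. The 2 genes with the smallest p, the survival gene Bcl2l1 (difference 0.24, adjusted p = 0.269) and Birc2 (0.22, adjusted p = 0.413), were not among the closest, with r of 0.50 and 0.74.

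Dendritic cell maturation genes and immediate-early genes followed the ligands in part, with r above 0.8 in 6 of 16 and 7 of 15 genes. In the maturation list 13 of 16 genes were higher in tumoral arrays and 3 lower, the median difference was 0.07, and the list's r was 0.89, with the chemokine gene Ccl17 at 0.95, Il12b at 0.94 and the lymph node homing receptor gene Ccr7 at 0.88, all chosen after their values were seen. Others of that list did not follow, among them Socs2 (r = 0.21), Lamp3 (-0.04), Il15ra (-0.13) and Cd200 (-0.22), chosen in the same way. Il15, a cytokine gene (difference 0.36, adjusted p = 0.246), and Marcks (0.43, adjusted p = 0.283) had the smallest p. Immediate-early genes had 11 of 15 higher, a median difference of 0.17 and r = 0.81, although Fos (0.28, adjusted p = 0.256) and Egr2 (0.36, adjusted p = 0.266) had r of 0.26 and 0.02. The 6 measured genes of surface control of MHC class II and CD86 were all higher, with a median difference of 0.07 and r = 0.72; the peptide-loading gene H2-DMa differed by 0.26 (adjusted p = 0.385) and the class II transactivator gene Ciita by 0.18 (adjusted p = 0.628).

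Interferon-response genes did not go with the ligands. Of 13 measured genes 12 were higher in tumoral arrays and 1 lower, with a median difference of 0.38 and the smallest p for Oas1a (0.54, adjusted p = 0.283) and Oas3 (0.47, adjusted p = 0.327), which encode sensors of viral RNA. The list's r with the ligands was -0.34 over all arrays, -0.89 within tumoral and 0.18 within peritumoral arrays, and 0 of 13 genes had r above 0.8. Other co-signalling ligands were mixed, with 8 of 16 higher and 8 lower, a median difference of 0.02 and r = 0.00 over all arrays, -0.63 within tumoral and 0.38 within peritumoral arrays. Within that list Pvr, a ligand of CD226 and TIGIT, had r = 0.98 and the adhesion gene Icam1 0.89, whereas Lgals9 (-0.76), Vsir (-0.65), Tnfsf18 (-0.62) and Tnfrsf14 (-0.60) ran the other way; all 6 were chosen after their values were seen. In the same list Cd48 (0.36, adjusted p = 0.273) and Vtcn1 (-0.16, adjusted p = 0.546) had the smallest p.

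The receptors on the T cell side were lower in tumoral arrays for 6 of 7 genes, with a median difference of -0.29. Cd27, the receptor of CD70, measured 6.29 ± 0.58 in peritumoral and 5.78 ± 0.26 in tumoral arrays (difference -0.52, adjusted p = 0.362, limma), and Ctla4 differed by -0.29 (adjusted p = 0.474). Both were highest in peritumoral 4, the array that also read highest for the T cell gene Cd3e (9.34). All 8 measured T cell markers had lower means in tumoral arrays, with a mean level of 6.58 to 8.47 in peritumoral and 6.45 to 7.12 in tumoral arrays, and their part in the receptor values was not tested. The receptor list had r = -0.13 with the ligands.

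Markers of conventional dendritic cells moved with the co-stimulatory genes in nearly the same way as the NF-kappaB genes. The list's mean level over 12 of 12 markers ran from 10.20 to 11.25 in peritumoral and from 10.43 to 11.22 in tumoral arrays, and its r with the ligands was 0.96, or 0.97 within each label. Of the 12 markers 9 had r above 0.8, and 10 had higher and 2 lower means in tumoral arrays. Flt3, the growth factor receptor that defines the lineage, measured 9.65 ± 0.61 in peritumoral and 9.69 ± 0.69 in tumoral arrays and had r = 0.95. Positions 3, 6, 9, 12 and 15 were the 5 lowest arrays of this list. They were also the 5 lowest of the maturation, plasmacytoid dendritic cell, B cell, T cell and lung epithelium lists. They held 4 of the 5 lowest of the NF-kappaB, alveolar macrophage, neutrophil and NK cell lists, and at most 3 in the other lists.

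Macrophage markers ran the other way. Their mean level over 11 of 11 markers was 10.69 to 11.72 in peritumoral and 11.24 to 11.96 in tumoral arrays, and positions 3, 6, 9, 12 and 15 were its 5 highest. The r with the ligands was -0.46 over all arrays, -0.96 within tumoral arrays, -0.33 within peritumoral arrays and -0.82 without peritumoral 4 and 7. Adgre1, which encodes F4/80, measured 11.30 ± 0.22 in peritumoral and 11.50 ± 0.13 in tumoral arrays and had r = 0.34. The part that the proportions of these cells played in the ligand values was not tested.

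**Figure D4:**
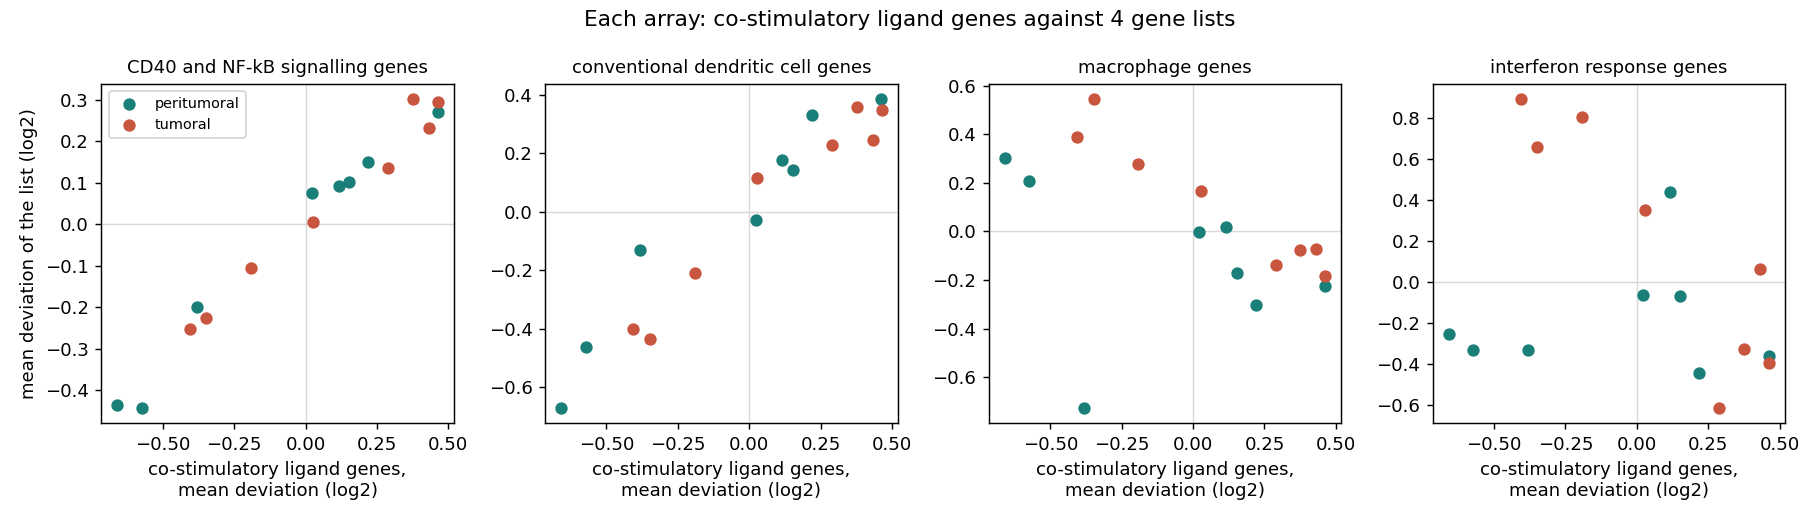
Mean deviation of 4 gene lists (vertical axes, log2) against the mean deviation of the co-stimulatory genes (horizontal axis, log2) in the 16 arrays, coloured by label. The NF-kappaB (r = 0.99) and conventional dendritic cell (r = 0.96) panels rise along a line, the macrophage panel falls within tumoral arrays (r = -0.96), and the interferon panel has r = -0.34.

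Other cell types gave weaker relations over all arrays. Type 1 dendritic cell markers had r = 0.58 as a list mean, with 5 of 10 higher and 5 lower in tumoral arrays. Gene by gene that list was mixed, with r from -0.84 for Irf8 to 0.89 for Wdfy4 and a median of 0.03. Monocyte markers had r = -0.42, plasmacytoid dendritic cell markers 0.36, B cell markers 0.19, and alveolar macrophage and lung epithelium markers 0.13. For T cell markers r was 0.11, for neutrophil markers 0.10, for NK cell markers -0.06, for endothelium -0.08 and for fibroblasts -0.31. Without peritumoral 4 and 7, r with the ligands was 0.92 for plasmacytoid dendritic cell, 0.87 for B cell and 0.73 for NK cell markers. It was then 0.66 for alveolar macrophage, 0.65 for lung epithelium and type 1 dendritic cell, and 0.59 for T cell markers. The rest had -0.44 to 0.35. Within tumoral arrays r was 0.70 to 0.94 for plasmacytoid dendritic cell, B cell, lung epithelium, T cell, NK cell and neutrophil markers. It was -0.76 there for monocyte markers and 0.25 to 0.55 for the rest. Within peritumoral arrays r was 0.685 for type 1 dendritic cell markers and -0.35 to 0.26 for the others. B cells also express Cd80, Cd86, Cd40, Cd83, Icosl and Cd70. Their marker list over 8 of 9 genes had a mean level of 5.79 to 8.84 in peritumoral and 5.86 to 6.82 in tumoral arrays. Peritumoral 4, the highest array of that list, was low for the ligands. The B cell list had r = 0.86 with the ligands within tumoral and 0.05 within peritumoral arrays. The part of B cells in the ligand values was not tested. All 10 endothelial markers had lower means in tumoral arrays, with levels of 6.58 to 10.73 in peritumoral and 6.47 to 6.66 in tumoral arrays, and so did all 10 fibroblast markers (6.90 to 8.87 and 6.54 to 6.93), among them Dcn, a matrix proteoglycan gene, at 9.05 ± 1.35 and 7.03 ± 0.77. All 12 lung epithelium markers had lower means in tumoral arrays as well, with a median difference of -0.55 and levels of 7.49 to 9.70 and 7.23 to 7.94, and so did 10 of 11 neutrophil markers, with a median difference of -0.49 and levels of 6.31 to 7.95 and 6.13 to 7.08. Of the defining markers, the epithelial gene Epcam measured 6.95 ± 0.36 and 6.88 ± 0.32 and the neutrophil gene S100a8 7.01 ± 0.94 and 6.52 ± 0.58. Without peritumoral 4 and 7 the ligand differences were 0.37 for Cd40, 0.35 for Tnfsf4, 0.29 for Cd83, 0.18 for Cd86, 0.16 for Cd80, 0.15 for Tnfsf9, 0.11 for Cd70 and -0.0030 for Icosl, and 0 of 8 passed the adjusted threshold in limma.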

How the data were processed

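The authors deposited a table of 28853 probe sets by 16 arrays of an Affymetrix whole-transcript platform, read here as log2 values because they run from 2.31 to 14.33. How the authors set the log base, background correction and normalization is not given in the sources used here. Scanner files and scan batches were not analysed here. Per the labels' protocols, total RNA was biotin-labelled after amplification with the Ambion WT Expression Kit.

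The platform annotation gave the gene names. A single symbol was listed for 21789, several for 1621 and none for 5443, and for the 999 genes with several probe sets the one with the highest mean was kept, which gave 19938 genes. Gene identifiers were checked against an NCBI table, which changed 0 symbols.

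The labels were the single term of a limma fit (version 3.58.1, run under R 4.3.3, with lmFit and eBayes, 14 residual degrees of freedom, two-sided, Benjamini-Hochberg over 19938 genes, threshold 0.05, no filter). Exact permutation tests used all 12870 assignments of the labels, and pair correlations used 100000 resamples. Both programs were tested on simulated data. The number of arrays limits the precision.

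Members and lists were chosen with earlier results of these data known. Of 227 entries in 7 function lists and 13 cell type lists, 212 were measured, and 4 genes stand in more than 1 list. Genes named by rule were the 8 members, 3 sorting markers, the 2 genes of each function list with the smallest p, the 3 genes most like each member, and defining cell type markers, 1 of which is not reported here. Equal replicate numbers were checked for pairing: same-numbered arrays had correlated deviations of -0.563 to 0.286, above 0.1 in 3 of 8 pairs, and no label ties them, so they were not taken as pairs. Alternatives covered normalization, filtering, variance settings, probe-set choice, the replicate number as a block, a rank-sum test and left-out arrays.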

Additional observations from a re-analysis of the deposited data

How the results depend on the processing

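0 co-stimulatory genes passed the adjusted threshold under all 29 alternatives, where the smallest adjusted p of any of them was 0.272 (Tnfsf4, without peritumoral 7, limma). Of 222 differences over these settings 208 kept their direction. Part of that count was fixed in advance. The replicate blocks, the trended and robust prior, the gene filter and the rank-sum and exact permutation tests leave the difference of means as it was. The 14 that reversed were all of Icosl or Cd70, whose differences were near 0: Icosl became 0.0231 with array medians centred and Cd70 -0.0607 with array weights, and leaving out 1 array at a time gave -0.1138 to 0.0722 for Icosl and -0.0836 to 0.1040 for Cd70. Sizes moved more. Leaving out 1 array gave 0.05 to 0.18 for Cd80, 0.13 to 0.25 for Cd86, 0.08 to 0.27 for Cd83 and 0.04 to 0.23 for Tnfsf9, each lowest without peritumoral 6, and 0.06 to 0.24 for the median of the 8. Array weights gave 0.03 for Cd80, 0.07 for Cd86, 0.14 for Cd40, 0.11 for Cd83, 0.20 for Tnfsf4, 0.05 for Tnfsf9 and 0.06 for the median. All 28 pairs of co-stimulatory genes passed in all 21 alternatives. The count of all genes past the threshold was 0 to 128 when 1 array was left out, with 128 without peritumoral 7 and 20 without peritumoral 8, and 88 without peritumoral 4 and 7; the cause was not tested. Tnfsf4 and Cd70 dropped out when only genes above the median mean were kept.

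With the replicate number as a replicate block, 0 genes passed, and the Tnfsf4 difference of 0.34 had an adjusted p of 0.513 (limma); no call changed under the block. Among peritumoral arrays 0 of 8 were most like the tumoral array of their own number. Dim probe sets limit what can be said of Tnfsf4 and Cd70, and the number of arrays limits every comparison.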
